A study of Mus musculus with 20 samples.

Results

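R307W and wild-type GATA2 were compared in cells that carried a deletion of the Gata2 -77 enhancer, and the comparison used 8 of the 20 RNA libraries of the series, 4 with each protein. Libraries were chosen by their labels alone. In the 4 R307W libraries, lineage-depleted blood progenitors of the genotype labelled -77KO, which lack the enhancer, received an MSCV retroviral vector coding for GATA2 with the R307W substitution, and in the 4 GATA2 libraries such cells received the vector with wild-type GATA2. The other libraries are 4 with the T354M variant and 4 with the empty vector in enhancer-null cells, and 4 with the empty vector in wild-type cells. They are used here for setting the levels side by side. All cells were cultured for 3 days after infection, and all 3 kinds of enhancer-null, GATA2-expressing library shared the deletion with the enhancer-null cells that received the empty vector. The records of the GATA2 and empty-vector libraries give C57BL/6J fetal liver at E14.5 and a medium with IL3-CM and SCF-CM. Those of the R307W and T354M libraries give no tissue, age, strain or medium. Any such difference between the records cannot be told apart from the difference in protein. The labels do not say whether replicates came from separate animals or cultures, so the p-values measure only the spread between libraries. How much of it is technical is not known; the Y-linked gene Ddx3y, at 0 to 53.0 CPM in the R307W libraries and 0 to 52.5 CPM in the GATA2 libraries, differed between replicates of both groups. The labels also do not give the species of the GATA2 sequence in the vectors.

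GATA2 is a transcription factor with a pair of zinc fingers that binds GATA motifs in DNA, and it acts in blood stem cells, in myeloid progenitors and in the mast cell and basophil lineages. The -77 enhancer lies upstream of Gata2 and drives its expression in myeloid progenitors. Germline GATA2 variants in people cause an immunodeficiency that predisposes to myeloid leukaemia. R307W lies in the amino-terminal zinc finger, and T354M in the carboxy-terminal finger, which makes most of the contact with the motif. Mast cells and basophils are granulocytes that carry the high-affinity IgE receptor and store proteases, histamine and serotonin in granules, and eosinophils are granulocytes that store peroxidase, major basic protein and RNases.

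In the mouse reference GRCm38, the arginine codon that R307W replaces stands in Gata2 at chr6:88202466-88202468 on the + strand, in exon 4 of 6 of transcript ENSMUST00000015197.8, which codes for 480 residues. The window chr6:88202436-88202498 is shown because it holds the position that was substituted, with that codon in capitals.
Gata2 codon window: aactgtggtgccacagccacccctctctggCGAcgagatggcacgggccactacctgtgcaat
To show the kind of site the factor binds, the 250 bases before the RefSeq start (GRCm38.p6) are given for 6 genes that fell with R307W, with the GATA motif AGATAA, or its reverse complement TTATCT, in capitals. Each is written in the direction of transcription.
Cpa3, chr3:20242182-20242431, - strand: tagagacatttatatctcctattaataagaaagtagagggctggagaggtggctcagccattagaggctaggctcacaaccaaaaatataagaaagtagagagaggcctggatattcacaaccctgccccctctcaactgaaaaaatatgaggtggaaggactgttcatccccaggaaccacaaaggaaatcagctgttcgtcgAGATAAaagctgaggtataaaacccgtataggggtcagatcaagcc
Dnase2b, chr3:146615599-146615848, - strand: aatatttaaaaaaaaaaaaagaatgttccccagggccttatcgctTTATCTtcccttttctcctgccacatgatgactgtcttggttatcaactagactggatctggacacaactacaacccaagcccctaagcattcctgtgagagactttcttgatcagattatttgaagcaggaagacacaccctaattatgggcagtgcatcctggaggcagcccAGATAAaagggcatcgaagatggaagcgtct
Prss34, chr17:25298144-25298393, + strand: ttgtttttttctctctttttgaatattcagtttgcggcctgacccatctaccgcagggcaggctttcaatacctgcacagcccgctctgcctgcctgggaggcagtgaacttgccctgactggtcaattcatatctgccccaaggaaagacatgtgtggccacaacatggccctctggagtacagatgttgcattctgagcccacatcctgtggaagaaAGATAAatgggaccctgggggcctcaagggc
Sytl3, chr17:6658809-6659058, + strand: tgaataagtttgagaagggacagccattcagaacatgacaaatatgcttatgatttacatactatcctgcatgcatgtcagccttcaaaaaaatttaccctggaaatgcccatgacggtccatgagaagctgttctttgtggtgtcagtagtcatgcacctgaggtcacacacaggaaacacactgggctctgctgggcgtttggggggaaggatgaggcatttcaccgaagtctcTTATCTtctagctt
Mcpt8, chr14:56085198-56085447, - strand: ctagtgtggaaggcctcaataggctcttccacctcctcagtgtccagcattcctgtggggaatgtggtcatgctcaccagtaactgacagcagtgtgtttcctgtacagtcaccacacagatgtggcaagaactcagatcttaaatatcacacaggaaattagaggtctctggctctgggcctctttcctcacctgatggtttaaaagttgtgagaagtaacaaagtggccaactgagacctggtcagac
Epx, chr11:87875537-87875786, - strand: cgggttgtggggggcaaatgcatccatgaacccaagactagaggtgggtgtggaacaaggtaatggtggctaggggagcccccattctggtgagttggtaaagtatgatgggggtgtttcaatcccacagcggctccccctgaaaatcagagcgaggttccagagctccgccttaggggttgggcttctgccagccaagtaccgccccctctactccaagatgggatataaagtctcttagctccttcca
The motif lay 46 bases before the start in Cpa3, 31 in Prss34, 14 in Sytl3, and 205 and 31 in Dnase2b, while these letters were not in the windows of Mcpt8 and Epx. Of the 15835 genes tested, 10702 had a promoter in the table, and 680 of those (6.35%) held the motif on either strand. The share was 10.8% (14 of 130) among genes lower with R307W, 10.6% (7 of 66) among genes higher with R307W, and 33.3% (8 of 24) in a list of mast cell and basophil genes. A match is a run of letters, and no binding was measured.

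Gata2 itself was expressed in all 8 libraries. Levels are given as CPM, read counts relative to library size after scaling by the trimmed mean of M-values, with replicates in the order 1 to 4 and group values as mean ± SD (n = 4). Gata2 had 50, 40, 39.5 and 89.5 CPM with R307W, against 71, 76.7, 42.9 and 132 CPM with GATA2. Cultures with the empty vector held 5.79 ± 1.3 CPM in enhancer-null cells and 44.3 ± 9.8 CPM in wild-type cells, and those with T354M held 52 ± 19.7 CPM. The R307W level was lower than the GATA2 level of the same replicate number in 4 of 4 pairs, and the groups overlapped. The log2 difference was -0.56 ± 0.32 (SE; adjusted p = 0.752) by edgeR's quasi-likelihood test with Benjamini-Hochberg adjustment. That test is behind every adjusted p here unless another is named. In a fit of the 8 libraries alone that blocked on replicate, the same difference had an adjusted p of 0.0345. Counts cannot separate vector transcripts from endogenous ones. Replicate 4 was highest in Gata2 in both groups and replicate 3 was the lowest of each, and the Gata2 level of R307W replicate 4 (89.5 CPM) lay above that of GATA2 replicates 1 to 3.

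Libraries held 22330475 to 33245876 expected counts, of which mt-Rnr2, the mitochondrial large ribosomal RNA, took 17.9% to 24.6%. On the first principal component of the 500 most variable genes in the 8 libraries, which carried 36.6% of the variance, R307W replicates 1 to 4 stood at 13.2, 20.4, 23.9 and 3.82, and GATA2 replicates 1 to 4 at -20.8, -8.62, 4.50 and -36.3. GATA2 replicate 3 therefore lay within the R307W range, and GATA2 replicate 4 stood farthest from it. Kit, the stem cell factor receptor that marks progenitors and mast cells, was present in all 8 libraries (88.5 ± 8.14 CPM with R307W and 98.3 ± 22 CPM with GATA2), as were genes of maturing myeloid cells described below. Summed over 23 hepatocyte markers, the level ran from 193 to 1540 CPM with R307W and from 417 to 1860 CPM with GATA2, lowest in replicate 4 of R307W. These are bulk libraries, so fewer cells of a type and less RNA per cell cannot be told apart.

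In the main fit a small part of the transcriptome differed between R307W and wild-type GATA2, with more and larger falls than rises with R307W. Of 15835 genes tested, 274 were called at an adjusted p under 0.05 (1.73%), of which 93 rose (0.587%) and 181 fell (1.14%) with R307W. The median log2 difference was 0.96 over the genes that rose and -1.68 over those that fell, beside 0.01 over all genes tested. At least 2-fold differences (1.17% of all genes tested) were met by 44 of the genes that rose and 141 of those that fell, and at least 8-fold differences by 2 and 43. The groups did not overlap in 243 of the 274 called genes, beside 963 genes (6.08%) of all tested. Blocking on replicate over all 20 libraries gave 441 genes (2.78%), of which 157 rose (0.991%), 284 fell (1.79%) and 267 were among the 274. The block in the 8 libraries alone gave 927. The count of 274 depended on single libraries: it was 156, 164 or 163 without R307W replicate 1, 2 or 3, and 177 or 126 without GATA2 replicate 1 or 4. Leaving out replicate 1, 2, 3 or 4 of every group gave 36, 110, 160 or 162.

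**Figure D1:**
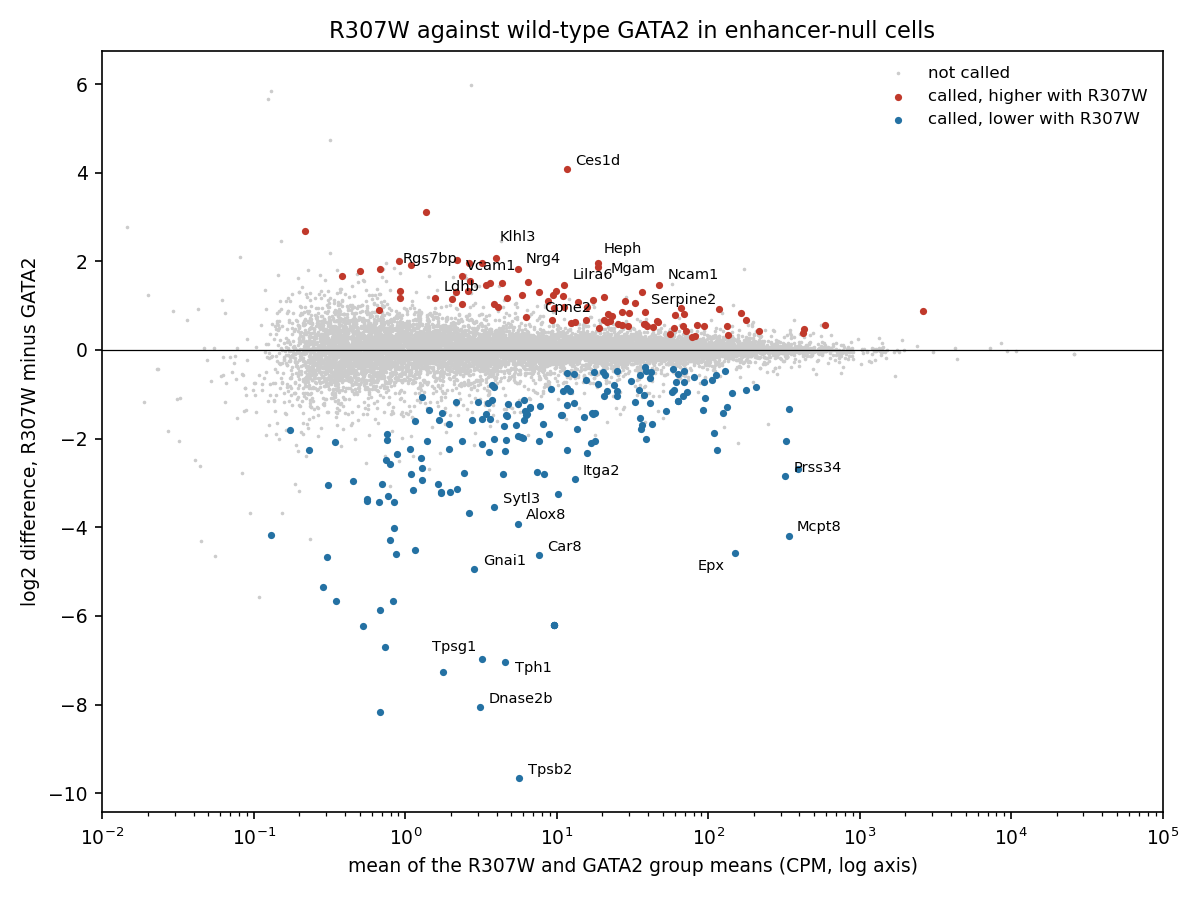
Log2 difference between R307W and GATA2 (vertical axis, R307W minus GATA2) against the mean of both group means in CPM (horizontal axis, log scale) for the 15835 genes tested. Red points mark the 93 genes that rose and blue points the 181 that fell at an adjusted p under 0.05, and the blue points reach farther from 0 than the red ones. Labelled genes had the most extreme differences among called genes with at least 5 CPM in a group and no overlap between groups.

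Many mast cell and basophil genes fell with R307W, and their list had the lowest median of the 28 lists examined. Of 30 listed genes 28 were tested, 12 fell and none rose with R307W, beside 1.14% of all genes tested that fell, and the median over the 28 was -1.85 on the log2 scale. Log2 differences were below 0 in 27 of the 28, and 2 of the 28 were at 0 counts in all R307W libraries. The summed level of the list was 880 to 1690 CPM with R307W, 722 to 1880 CPM with T354M, 1940 to 5920 CPM with GATA2, 320 to 367 CPM with the empty vector in enhancer-null cells and 1110 to 1450 CPM with the empty vector in wild-type cells. The list's count was 16 with the replicate block, 7 without R307W replicate 1, 2 or 3, 7 without GATA2 replicate 4, and 3 or 5 without replicate 1 or 2 of every group.

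Mcpt8, a granule protease of basophils (GRCm38 chr14:56082166-56085273, - strand), fell 18.3-fold. It had 34.5, 30.4, 18.4 and 57.8 CPM with R307W, against 679, 571, 255 and 1070 CPM with GATA2. No R307W library reached the lowest GATA2 library. Its log2 difference was -4.19 ± 0.42 (SE; adjusted p = 5.79e-05). T354M libraries held 56.2 ± 26 CPM, the empty vector 11 ± 0.786 CPM in enhancer-null and 81 ± 20 CPM in wild-type cells. R307W and T354M, which differed in 3.49% of all genes tested (2.3% higher and 1.19% lower with R307W), differed in Mcpt8 by -0.67 ± 0.38 (log2, SE; adjusted p = 0.556). Prss34, another basophil protease, had 57.9, 54, 36.6 and 166 CPM with R307W, against 547, 507, 296 and 913 CPM with GATA2. The fitted log2 difference was -2.85 ± 0.67 (SE; adjusted p = 0.0325). Cpa3, the carboxypeptidase of mast cell and basophil granules, had 115, 75.2, 70.5 and 158 CPM with R307W, against 719, 594, 343 and 1040 CPM with GATA2. Its groups did not overlap. The difference in log2 units was -2.69 ± 0.39 (SE; adjusted p = 0.000817). Cpa3 was also lower with R307W than with T354M (344 ± 198 CPM), with a difference of -1.72 ± 0.38 (log2, SE; adjusted p = 0.0132, or 0.0577 without T354M replicate 4). Ms4a2, the beta chain of the high-affinity IgE receptor, had 35.3, 25.1, 20.9 and 76.3 CPM with R307W, against 180, 163, 133 and 284 CPM with GATA2. This made a log2 difference of -2.27 ± 0.49 (SE; adjusted p = 0.0174).

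Granule tryptases and the enzyme of serotonin synthesis were at or near 0 with R307W. Tpsb2, the main mast cell tryptase, had 0, 0.0385, 0 and 0 CPM with R307W, against 9.38, 4.98, 0.337 and 30.6 CPM with GATA2. That is 1 count over the 4 R307W libraries against 1296 over the 4 GATA2 libraries, a ratio of 1260 (exact 95% counting interval 226 to 50000; adjusted p = 0.0018). Tpsg1, the membrane-anchored gamma tryptase, had 0.0416, 0, 0 and 0.121 CPM with R307W, against 4.37, 3.04, 0.412 and 17.5 CPM with GATA2. Between the groups the log2 difference was -6.98 ± 0.99 (SE; adjusted p = 0.000588). Tph1, tryptophan hydroxylase, which starts serotonin synthesis, had 0, 0.0771, 0.0413 and 0.121 CPM with R307W, against 7.45, 4.57, 0.825 and 23.3 CPM with GATA2. The log2 difference was -7.03 ± 0.95 (SE; adjusted p = 0.000432). In each of these 3 genes the highest R307W library stood below the lowest GATA2 library, which was replicate 3, and GATA2 replicate 4 was the highest. Among proteases that are similar in sequence to each other, Tpsab1 had 1 count with R307W against 167 with GATA2 (ratio 163, interval 28.8 to 6470; adjusted p = 0.0256). Mcpt2 had 2 against 155 (ratio 75.6, interval 20.6 to 630; adjusted p = 0.0247). Mcpt4 had no count with R307W against 157 with GATA2, at least 51.0-fold lower by a floor of 3 counts over the group (adjusted p = 0.0109). Cma1, a mast cell chymase, had 1.88 ± 2.02 CPM with R307W and 18.6 ± 15.7 CPM with GATA2. The groups overlapped. Its log2 difference was -3.26 ± 0.75 (SE; adjusted p = 0.0268). Reads shared between copies of these families could be split in the counting, so single members are uncertain.

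**Figure D2:**
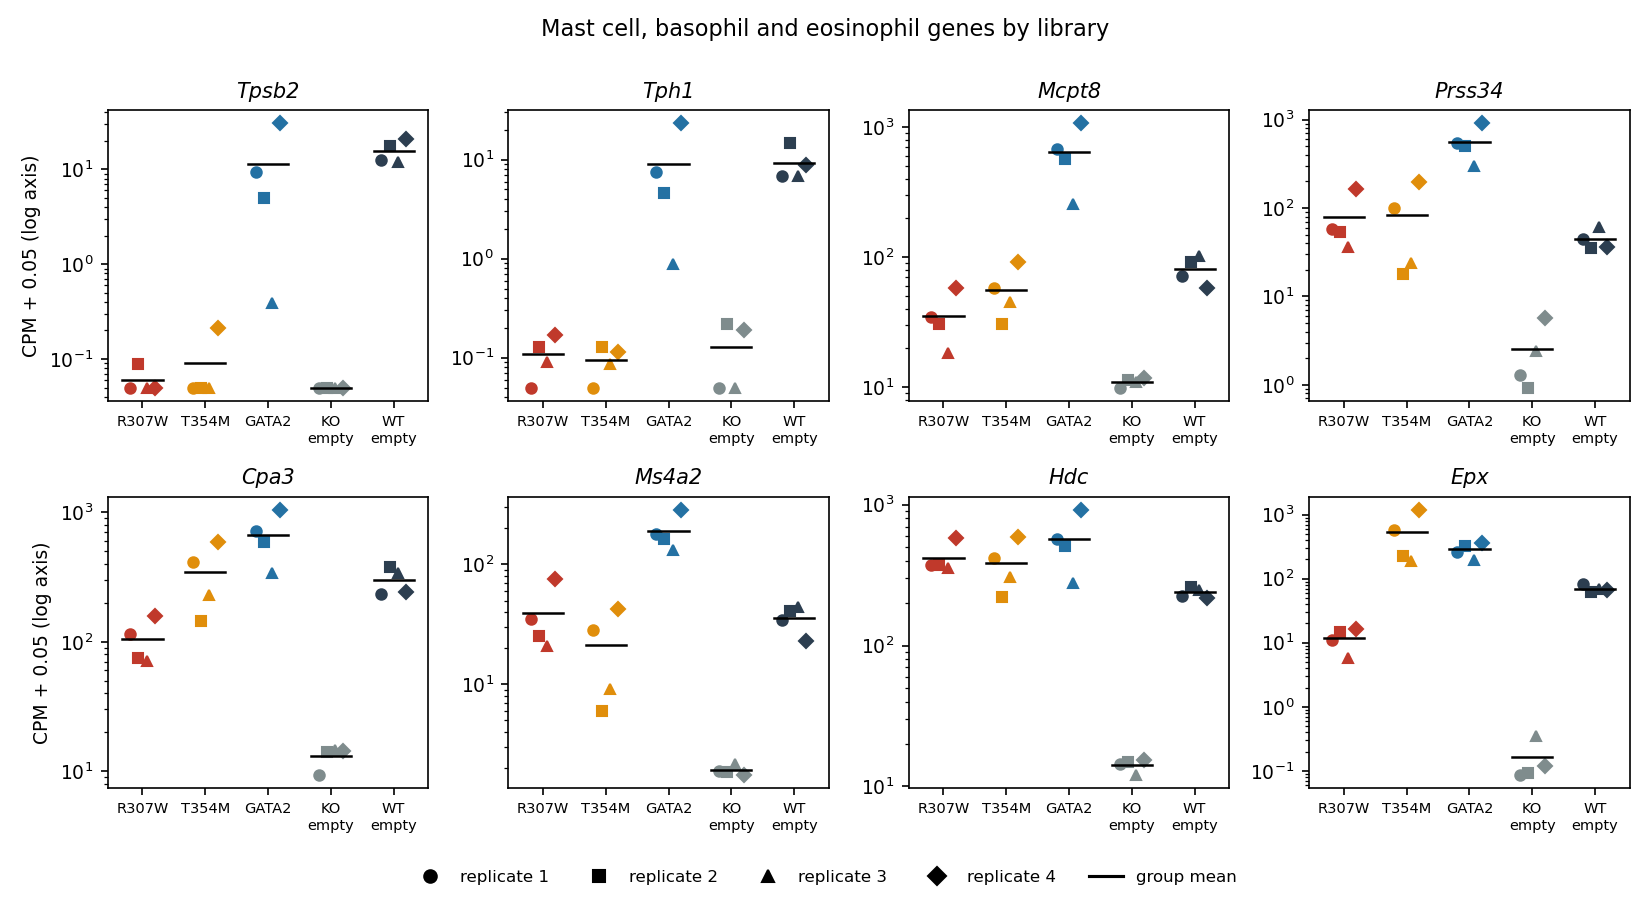
Level of 8 mast cell, basophil and eosinophil genes in each library (CPM + 0.05, log axis) by group, from R307W and T354M to GATA2 and the 2 empty-vector groups. Points are replicates 1 to 4 and bars are group means, and in Tpsb2, Tph1, Mcpt8, Prss34, Cpa3, Ms4a2 and Epx every R307W point lies below every GATA2 point, while the Hdc groups overlap.

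Set beside the empty vector in enhancer-null cells, the levels with R307W differed from gene to gene. Hdc averaged 420 ± 107 CPM with R307W, 568 ± 262 CPM with GATA2 and 14.2 ± 1.45 CPM with the empty vector. Cpa3 averaged 105 ± 40.7 CPM with R307W, 674 ± 290 CPM with GATA2 and 13 ± 2.43 CPM with the empty vector, and Ms4a2 averaged 39.4 ± 25.3 CPM, 190 ± 65.7 CPM and 1.86 ± 0.167 CPM in the same order. In these 3 genes every R307W library stood above every empty-vector library. Tph1 averaged 0.0598 ± 0.0514 CPM with R307W, 9.05 ± 9.91 CPM with GATA2 and 0.0774 ± 0.09 CPM with the empty vector, so that R307W and the empty vector overlapped near 0. These 4 genes were chosen after their values were seen, and their levels are given here as a description.

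Leaving out single libraries, in fits without the replicate block, ended the calls of 5 of these mast cell and basophil genes. Differences between replicate numbers that both groups shared stayed in the spread of those fits. The adjusted p of Ms4a2 was 0.0703 to 0.0801 without R307W replicate 1, 2 or 3 or GATA2 replicate 4. For Prss34 it was 0.0505 to 0.13 without R307W replicate 1, 2 or 3 or GATA2 replicate 1, 2 or 4, and for Cma1 0.0682 to 0.136 without R307W replicate 1, 2 or 3 or GATA2 replicate 1 or 4. Tpsab1 had 0.0749 to 0.11 and Mcpt2 0.0629 to 0.17 without any one R307W replicate or GATA2 replicate 4.

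Other members of the list did not pass the test. Hdc, which makes histamine, had 420 ± 107 CPM with R307W and 568 ± 262 CPM with GATA2 (log2 difference -0.43 ± 0.28 SE, adjusted p = 0.85). Kit differed by -0.15 ± 0.13 (log2, SE; adjusted p = 0.97). The alpha chain of the IgE receptor, Fcer1a, had 2 ± 1.46 CPM with R307W and 5.62 ± 2.82 CPM with GATA2 (log2 difference -1.47 ± 0.46 SE, adjusted p = 0.146). Mitf, a transcription factor of mast cells, had 9.27 ± 2.2 CPM with R307W and 11.2 ± 1.89 CPM with GATA2 (adjusted p = 0.931). Il4, a cytokine that basophils release, had 4.08 ± 2.33 CPM with R307W and 6.88 ± 3 CPM with GATA2 (adjusted p = 0.884). A further 4 members that missed the threshold passed with the replicate block, and 3 of them, all but Fcer1g, also passed with no filter on low counts, at an adjusted p of 0.0206 for Il1rl1, 0.0122 for Slc18a2 and 0.0215 for Cd200r3. Il1rl1, the IL-33 receptor, had 118 ± 64.8 CPM with R307W and 377 ± 203 CPM with GATA2 (adjusted p = 0.129, and 0.0225 with the block). Slc18a2, the vesicular monoamine transporter, had 25.7 ± 14 CPM with R307W and 74.3 ± 28.5 CPM with GATA2 (adjusted p = 0.0887, and 0.00655 with the block). Cd200r3, a receptor of basophils and mast cells, had 58.9 ± 39.5 CPM with R307W and 197 ± 87.6 CPM with GATA2 (adjusted p = 0.13, and 0.0228 with the block). Fcer1g, the signalling chain shared by Fc receptors, had 70.8 ± 5.47 CPM with R307W and 89.8 ± 5.1 CPM with GATA2 (adjusted p = 0.196, and 0.0336 with the block).

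Among eosinophil genes, Epx alone was called lower. Epx, the eosinophil peroxidase (GRCm38 chr11:87864000-87875536, - strand), had 11.1, 14.6, 5.7 and 16.2 CPM with R307W, against 265, 327, 193 and 362 CPM with GATA2. The highest R307W library stayed below the lowest GATA2 library. The fitted log2 difference was -4.58 ± 0.50 (SE; adjusted p = 8.81e-05). The call held under every alternative of design, scaling, test and left-out library. T354M libraries held 567, 223, 186 and 1170 CPM, and R307W was lower, with a difference from T354M of -5.49 ± 0.52 (log2, SE; adjusted p = 5.42e-06). Other granule genes did not pass the test. Prg2, major basic protein, had 1360 ± 418 CPM with R307W and 2050 ± 484 CPM with GATA2 (adjusted p = 0.927). Prg3 had 230 ± 48.8 CPM with R307W and 159 ± 26.1 CPM with GATA2 (adjusted p = 0.838). Ear2, an eosinophil-associated RNase of a family of similar copies, had 295, 227, 107 and 451 CPM with R307W, against 85.5, 84.5, 39.2 and 94.9 CPM with GATA2. Its groups did not overlap, but the gene was not called. The difference in log2 units was 1.83 ± 0.48 (SE; adjusted p = 0.0622), and the adjusted p was 0.0347 with the replicate block. R307W was higher in Ear2 than T354M (17.8 ± 14.7 CPM) by 3.92 ± 0.53 (log2, SE; adjusted p = 0.000231). Siglecf, a sialic acid-binding receptor of eosinophils, rose (88.1 ± 22.7 CPM with R307W and 50.2 ± 6.27 CPM with GATA2; log2 difference 0.81 ± 0.19 SE, adjusted p = 0.0345), a call lost at an adjusted p of 0.0575 to 0.12 without R307W replicate 1, 2 or 4 or GATA2 replicate 1, 3 or 4. Il5ra, the IL-5 receptor, had 37.8 ± 10.4 CPM with R307W and 27.3 ± 4.24 CPM with GATA2 (adjusted p = 0.769). The list of 11 tested genes had 1 that rose and 1 that fell, beside 0.587% and 1.14% of all genes tested, and a median of 0.47.

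Several further genes, not members of the mast cell and basophil or eosinophil lists, were near 0 or low with R307W and clearly detected with GATA2. Dnase2b, an acid DNase, had 2 counts over the R307W libraries against 700 over the GATA2 libraries, a ratio of 341 (exact 95% counting interval 94.2 to 2820). Its level was 0, 0.0771, 0 and 0 CPM with R307W, against 6.59, 4.83, 2.02 and 11.5 CPM with GATA2. Gnai1, an inhibitory G protein alpha subunit, had 0.0416, 0.231, 0.206 and 0.211 CPM with R307W, against 5.59, 2.59, 0.6 and 13.4 CPM with GATA2. This made a log2 difference of -4.95 ± 0.71 (SE; adjusted p = 0.000621). Car8, a carbonic anhydrase-related protein, had 0.582 ± 0.142 CPM with R307W and 14.6 ± 13.9 CPM with GATA2 (log2 difference -4.62 ± 0.66 SE, adjusted p = 0.000588). Alox8, an arachidonate lipoxygenase, had 0.676 ± 0.305 CPM with R307W and 10.4 ± 5.75 CPM with GATA2 (log2 difference -3.92 ± 0.56 SE, adjusted p = 0.000588). Muc20, a mucin, had 0.064 ± 0.0544 CPM with R307W and 1.68 ± 0.923 CPM with GATA2 (log2 difference -4.60 ± 0.66 SE, adjusted p = 0.000612). Sytl3, a synaptotagmin-like protein of vesicle transport, had 0.604 ± 0.185 CPM with R307W and 7.14 ± 3.58 CPM with GATA2 (log2 difference -3.54 ± 0.44 SE, adjusted p = 0.000211). Itga2, the integrin alpha chain that binds collagen, had 3.06 ± 1.01 CPM with R307W and 23.2 ± 14 CPM with GATA2 (log2 difference -2.92 ± 0.36 SE, adjusted p = 0.000211). All of these showed no overlap between the groups.

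Several cytokine, chemokine and receptor genes fell with R307W. Of 38 interleukin and interleukin receptor genes tested 5 fell and 2 rose, and of 29 chemokine and chemokine receptor genes 3 fell and none rose, beside 1.14% of all genes tested that fell and 0.587% that rose. The medians were -0.19 and -0.27, beside 0.01 over all genes. Il7r, Il1r2 and Il17rb, given below, are not members of the interleukin list and are not in its counts. Osm, oncostatin M, a cytokine of the IL-6 family, had 13.5, 14.7, 11.6 and 21.9 CPM with R307W, against 54.2, 79, 34.7 and 82.7 CPM with GATA2. No R307W library reached the GATA2 range. Between the groups the log2 difference was -2.02 ± 0.28 (SE; adjusted p = 0.000457). Lif, a related cytokine, had 0.532 ± 0.164 CPM with R307W and 2.26 ± 1.02 CPM with GATA2 (log2 difference -2.06 ± 0.43 SE, adjusted p = 0.0155, and 0.057 to 0.0869 without R307W replicate 1, 2 or 3 or GATA2 replicate 4). Ccl3, a chemokine for monocytes and granulocytes, had 12.6, 20.4, 17 and 14.9 CPM with R307W, against 52.3, 68.2, 31.9 and 70.7 CPM with GATA2. The log2 difference was -1.78 ± 0.30 (SE; adjusted p = 0.00322). Ccl3 is also the twelfth gene of the mast cell and basophil list that fell. Ccl6 (60.5 ± 16.3 CPM with R307W and 129 ± 31.1 CPM with GATA2; log2 difference -1.09 ± 0.21 SE, adjusted p = 0.00686) and Ccl9 (148 ± 13.6 CPM with R307W and 266 ± 44.5 CPM with GATA2; log2 difference -0.84 ± 0.17 SE, adjusted p = 0.00979) are further chemokines of myeloid cells.

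Both chains of the IL-18 receptor fell. Il18r1, which binds IL-18, had 1.82 ± 0.635 CPM with R307W and 7.43 ± 3.84 CPM with GATA2 (log2 difference -2.02 ± 0.35 SE, adjusted p = 0.00431). Il18rap, its accessory chain, had 97 ± 16.6 CPM with R307W and 189 ± 40.3 CPM with GATA2 (log2 difference -0.96 ± 0.18 SE, adjusted p = 0.00574). Il7r, the receptor of IL-7 and TSLP, had 5.98, 5.32, 6.36 and 3.5 CPM with R307W, against 28.6, 23.2, 11.4 and 42.2 CPM with GATA2. The groups did not overlap. Its log2 difference was -2.32 ± 0.29 (SE; adjusted p = 0.000259). Il2rg, the common gamma chain, fell slightly, with a difference of -0.39 ± 0.08 (log2, SE; adjusted p = 0.0169), and the adjusted p was 0.0661 to 0.096 without R307W replicate 2 or 3 or GATA2 replicate 1 or 4. Il12rb2, a chain of the IL-12 receptor, rose by 0.75 ± 0.18 (log2, SE; adjusted p = 0.0359), with an adjusted p of 0.0658 to 0.17 without R307W replicate 1, 3 or 4 or GATA2 replicate 1, 2 or 4. Il15, an interleukin for lymphocytes, rose (27.7 ± 4.75 CPM with R307W and 17.5 ± 2.52 CPM with GATA2; log2 difference 0.67 ± 0.16 SE, adjusted p = 0.0406), but the adjusted p was 0.0661 to 0.131 without R307W replicate 1, 3 or 4 or GATA2 replicate 2, 3 or 4. Il1r2, the decoy receptor of IL-1, fell (4.05 ± 1.26 CPM with R307W and 19.3 ± 10.8 CPM with GATA2; log2 difference -2.25 ± 0.41 SE, adjusted p = 0.00582). Il17rb, the receptor of IL-25, was picked after its values were seen. It fell with R307W against GATA2 (0.365 ± 0.222 CPM with R307W and 4.9 ± 2.17 CPM with GATA2; log2 difference -3.68 ± 0.55 SE, adjusted p = 0.000945) and against T354M (8.19 ± 6.48 CPM; log2 difference -4.42 ± 0.56 SE, adjusted p = 0.000135).

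Genes induced early by growth factor signalling, and feedback inhibitors of the MAP kinase pathway, fell in part. Of 36 tested 5 fell and none rose, beside 1.14% of all genes tested that fell and 0.587% that rose, and the median was -0.25 beside 0.01 over all genes. Egr3, an early growth response factor, had 1.25, 0.54, 1.69 and 1.33 CPM with R307W, against 5.95, 5.06, 3.37 and 6.48 CPM with GATA2. The fitted log2 difference was -2.11 ± 0.34 (SE; adjusted p = 0.0018). Its relative Egr2 had 0.92 ± 0.26 CPM with R307W and 2.96 ± 1.03 CPM with GATA2 (log2 difference -1.68 ± 0.34 SE, adjusted p = 0.0105, and 0.0506 or 0.0532 without R307W replicate 2 or GATA2 replicate 4). Dusp6, the phosphatase that inactivates ERK, had 41.6 ± 6.37 CPM with R307W and 77.3 ± 15.7 CPM with GATA2 (log2 difference -0.89 ± 0.15 SE, adjusted p = 0.00272). Ier3, another early gene, had 14.7 ± 3.14 CPM with R307W and 28 ± 5.14 CPM with GATA2 (log2 difference -0.92 ± 0.18 SE, adjusted p = 0.0106, and 0.0534 or 0.0586 without R307W replicate 1 or GATA2 replicate 4). Etv5, an ETS factor downstream of ERK, differed by -0.48 ± 0.10 (log2, SE; adjusted p = 0.0146), with an adjusted p of 0.0587 to 0.0835 without R307W replicate 2 or GATA2 replicate 1 or 4. Egr1 (14 ± 4.9 CPM with R307W and 38.5 ± 15.5 CPM with GATA2), Dusp5 (17.7 ± 3.69 CPM with R307W and 34.2 ± 7.43 CPM with GATA2) and Spry4, a Sprouty inhibitor (2.05 ± 0.545 CPM with R307W and 4.69 ± 1.97 CPM with GATA2), had adjusted p-values of 0.0548, 0.0566 and 0.0644, and of 0.011, 0.0457 and 0.0257 with the replicate block. The list's count was 9 with the block and 9 without GATA2 replicate 3, against 3 without R307W replicate 2, 2 without GATA2 replicate 4 and 0 without replicate 1 of every group.

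Most transcription factors of blood lineages did not pass the test. Of 72 tested, 1 rose (Gfi1) and 3 fell (Ets1, Egr2 and Egr3), beside 0.587% and 1.14% of all genes tested, with a median of -0.0002 on the log2 scale, and 5 fell with the block. Ets1, a factor of lymphoid and mast cells, had 18.5, 17.9, 17.3 and 27.8 CPM with R307W, against 67.3, 60.5, 43.8 and 89.3 CPM with GATA2. The groups did not overlap. The difference in log2 units was -1.68 ± 0.23 (SE; adjusted p = 0.000496). The T354M mean lay between (33.4 ± 12.2 CPM), and R307W and T354M differed by -0.71 ± 0.23 (log2, SE; adjusted p = 0.111, or 0.0303 with the block). Gfi1, a repressor needed for neutrophil development, rose (22.3 ± 2.52 CPM with R307W and 15.8 ± 1.04 CPM with GATA2; log2 difference 0.50 ± 0.11 SE, adjusted p = 0.0204, and 0.0509 to 0.0919 without R307W replicate 2 or 3 or GATA2 replicate 3 or 4), but was below the T354M level (62.5 ± 7.82 CPM; log2 difference -1.48 ± 0.11 SE, adjusted p = 3.61e-07). Gata1, the factor of erythroid, mast cell and eosinophil development, had 35.7, 28.3, 22.9 and 59.8 CPM with R307W, against 45.5, 45.8, 29.6 and 73.5 CPM with GATA2. This made a log2 difference of -0.40 ± 0.33 (SE; adjusted p = 0.966). R307W exceeded T354M in Gata1 (12.2 ± 6.62 CPM) by 1.58 ± 0.35 (log2, SE; adjusted p = 0.0118, but 0.0673 without R307W replicate 4 and 0.0515 without T354M replicate 3). Cebpa, a factor of granulocyte and monocyte progenitors, had 89.5 ± 13.3 CPM with R307W and 73.7 ± 10.3 CPM with GATA2 (adjusted p = 0.533). Gfi1b (25 ± 11.6 CPM with R307W and 34.9 ± 18 CPM with GATA2; adjusted p = 0.927) and Klf1 (12.1 ± 6.91 CPM with R307W and 18 ± 10.6 CPM with GATA2; adjusted p = 0.854), both of the erythroid lineage, did not pass either.

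Few erythroid genes were called, and most megakaryocyte and platelet genes were lower with R307W though few were called. Of 46 erythroid genes 1 fell and none rose, beside 1.14% of all genes tested that fell, with a median of -0.29, while 5 fell and 1 rose with the replicate block. The gene that fell was Car2, carbonic anhydrase 2 (77.3 ± 31.2 CPM with R307W and 188 ± 109 CPM with GATA2; log2 difference -1.28 ± 0.30 SE, adjusted p = 0.0333), whose adjusted p was 0.0542 to 0.184 without R307W replicate 1, 2 or 3 or GATA2 replicate 1 or 4. Car1, its red cell relative, had 8.14 ± 4.02 CPM with R307W and 20.1 ± 10.9 CPM with GATA2 (adjusted p = 0.0934, and 0.0198 with the block). Alas2, the erythroid enzyme that starts haem synthesis, had 1.24 ± 0.587 CPM with R307W and 4.53 ± 4.31 CPM with GATA2 (adjusted p = 0.16, and 0.0497 with the block). Hbb-bt, an adult beta globin, had 58.3, 61.6, 45.8 and 177 CPM with R307W, against 19.7, 30.1, 21.1 and 50.7 CPM with GATA2, with R307W replicate 4 the highest (adjusted p = 0.171, and 0.00157 with the block). Of 23 megakaryocyte and platelet genes 2 fell, beside 1.14% of all genes tested. Their median was -0.56, and 22 of the 23 were below 0, beside 46.3% of all genes tested. The groups did not overlap in 8 of the 23, beside 6.08% of all genes tested. The summed level of the megakaryocyte and platelet list was 741 to 972 CPM with R307W and 1010 to 1080 CPM with GATA2. The genes called lower were Rab27b, a GTPase of granule secretion (9.72 ± 1.91 CPM with R307W and 25.9 ± 9.73 CPM with GATA2; log2 difference -1.41 ± 0.26 SE, adjusted p = 0.00601), and Itgb3, the platelet integrin beta chain (38.9 ± 3.04 CPM with R307W and 86.8 ± 31.7 CPM with GATA2; log2 difference -1.16 ± 0.25 SE, adjusted p = 0.0189, and 0.0557 to 0.109 without R307W replicate 1, 2 or 3 or GATA2 replicate 1 or 4).

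Some genes of a list for primary neutrophil granules and early neutrophils rose with R307W. Of 12 tested 4 rose and none fell, beside 0.587% of all genes tested that rose, and the median was 0.53. Mpo, myeloperoxidase, had 2660, 3810, 3160 and 4030 CPM with R307W, against 1570, 2230, 1970 and 1680 CPM with GATA2. Between the groups the log2 difference was 0.87 ± 0.16 (SE; adjusted p = 0.00603). R307W differed in Mpo from T354M (4530 ± 886 CPM) by -0.41 ± 0.16 (log2, SE; adjusted p = 0.241). Elane, neutrophil elastase, had 46.3, 73.5, 37.7 and 41 CPM with R307W, against 31.1, 31.8, 25.6 and 20.4 CPM with GATA2. The log2 difference was 0.87 ± 0.20 (SE; adjusted p = 0.0262). T354M libraries held 86 ± 9.54 CPM of Elane, and R307W was lower, with a difference of -0.79 ± 0.20 (log2, SE; adjusted p = 0.0275, but 0.0715 to 0.118 without R307W replicate 1, 3 or 4 or T354M replicate 1 or 4). Mgst1, a microsomal glutathione transferase (87.1 ± 8.33 CPM with R307W and 45.4 ± 9.69 CPM with GATA2; log2 difference 0.94 ± 0.18 SE, adjusted p = 0.00642), and Nkg7, a granule membrane protein (38.6 ± 8.69 CPM with R307W and 17.9 ± 2.29 CPM with GATA2; log2 difference 1.11 ± 0.22 SE, adjusted p = 0.00862), were the other 2. Prss57, a serine protease of primary neutrophil granules, had 48.1 ± 7.22 CPM with R307W and 29.8 ± 5.84 CPM with GATA2 (adjusted p = 0.0554, and 0.0457 with the block). Prtn3 (185 ± 76.4 CPM with R307W and 135 ± 35.8 CPM with GATA2) and Ctsg (218 ± 49.2 CPM with R307W and 268 ± 39.4 CPM with GATA2), the granule proteases proteinase 3 and cathepsin G, had adjusted p-values of 0.72 and 0.722. The call of Elane was lost at 0.0568 to 0.136 without R307W replicate 1 or 2 or GATA2 replicate 3 or 4, and the list's count was 6 with the block and 1, 2, 0 or 1 without replicate 1, 2, 3 or 4 of every group.

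The largest rise among called genes with at least 5 CPM in a group was that of Ces1d. Ces1d, a carboxylesterase of lipid and drug metabolism (GRCm38 chr8:93166068-93197838, - strand), had 22.7, 18.5, 11.8 and 34.8 CPM with R307W, against 1.33, 1.41, 0.75 and 1.71 CPM with GATA2, a 16.9-fold difference. The lowest R307W library was far above the highest GATA2 library. Its log2 difference was 4.07 ± 0.36 (SE; adjusted p = 1.62e-05). Ces1d had 0.842 ± 0.271 CPM with T354M, and 0.257 ± 0.129 CPM and 3.64 ± 1.42 CPM with the empty vector in enhancer-null and wild-type cells. Heph, the copper ferroxidase hephaestin, had 25.6, 20.9, 21.8 and 50.4 CPM with R307W, against 6.48, 6.01, 5.58 and 12.3 CPM with GATA2. The fitted log2 difference was 1.96 ± 0.33 (SE; adjusted p = 0.00322). Serpine2, a serine protease inhibitor (52.3 ± 16.8 CPM with R307W and 21.1 ± 2.6 CPM with GATA2; log2 difference 1.31 ± 0.24 SE, adjusted p = 0.00601), and Cpne2, a calcium-dependent membrane-binding copine (14.2 ± 6.24 CPM with R307W and 5.67 ± 0.847 CPM with GATA2; log2 difference 1.33 ± 0.22 SE, adjusted p = 0.00268), were higher in all 4 R307W libraries than in any GATA2 library. So was Lilra6, a leukocyte immunoglobulin-like receptor with similar copies (16.5 ± 8.85 CPM with R307W and 5.95 ± 0.67 CPM with GATA2; log2 difference 1.47 ± 0.28 SE, adjusted p = 0.00805).

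These 5 genes were also higher with R307W than with T354M. The log2 differences between the variants were 4.69 ± 0.38 (log2, SE; adjusted p = 1.02e-06) for Ces1d, 4.03 ± 0.37 (log2, SE; adjusted p = 4.61e-06) for Heph, 1.72 ± 0.25 (log2, SE; adjusted p = 0.000371) for Serpine2, 1.93 ± 0.22 (log2, SE; adjusted p = 7.71e-05) for Cpne2 and 1.92 ± 0.29 (log2, SE; adjusted p = 0.000641) for Lilra6. They were picked for the test with their levels known. Vit, which codes for the matrix protein vitrin and was also picked after its values were seen, was higher with R307W than with GATA2 (2.45 ± 1.02 CPM with R307W and 0.282 ± 0.0448 CPM with GATA2; log2 difference 3.10 ± 0.50 SE, adjusted p = 0.00202) and than with T354M (0.256 ± 0.167 CPM; log2 difference 3.22 ± 0.50 SE, adjusted p = 0.000887).

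Mgam and Ncam1 rose with R307W and had T354M levels that overlapped those of R307W. Mgam, maltase-glucoamylase, had 31.8, 31.5, 28.4 and 26.2 CPM with R307W, against 7.09, 12, 7.16 and 5.93 CPM with GATA2. The groups did not overlap. The difference in log2 units was 1.87 ± 0.21 (SE; adjusted p = 0.000112). T354M libraries held 35.1 ± 6.34 CPM, and the difference of R307W from T354M was -0.25 ± 0.20 (log2, SE; adjusted p = 0.798). Ncam1, the neural cell adhesion molecule, had 67.4, 70.1, 60.2 and 81.5 CPM with R307W, against 27.5, 29.6, 22.3 and 21.7 CPM with GATA2. This made a log2 difference of 1.47 ± 0.16 (SE; adjusted p = 8.81e-05). T354M libraries held 70.4 ± 15.7 CPM. Genes of lower level that rose were Klhl3, a ubiquitin ligase adaptor (6.37 ± 1.08 CPM with R307W and 1.51 ± 0.357 CPM with GATA2; log2 difference 2.08 ± 0.24 SE, adjusted p = 0.000112), Nrg4, an EGF-family ligand (8.6 ± 0.592 CPM with R307W and 2.43 ± 1.07 CPM with GATA2; log2 difference 1.82 ± 0.28 SE, adjusted p = 0.00115), and Rgs7bp, which anchors regulators of G protein signalling (5.12 ± 1.89 CPM with R307W and 1.32 ± 0.338 CPM with GATA2; log2 difference 1.95 ± 0.33 SE, adjusted p = 0.00299). Ldhb, lactate dehydrogenase B, had 5.34 ± 0.505 CPM with R307W and 1.87 ± 0.386 CPM with GATA2 (log2 difference 1.52 ± 0.24 SE, adjusted p = 0.00145). Vcam1, an adhesion molecule of macrophages and endothelium, had 9.63 ± 2.84 CPM with R307W and 3.32 ± 1.35 CPM with GATA2 (log2 difference 1.53 ± 0.31 SE, adjusted p = 0.0116, and 0.0534 or 0.0625 without R307W replicate 1 or GATA2 replicate 4). Cdk6, a cyclin-dependent kinase that drives entry into the cell cycle, rose slightly (497 ± 48.9 CPM with R307W and 357 ± 25.9 CPM with GATA2; log2 difference 0.48 ± 0.09 SE, adjusted p = 0.00686).

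**Figure D3:**
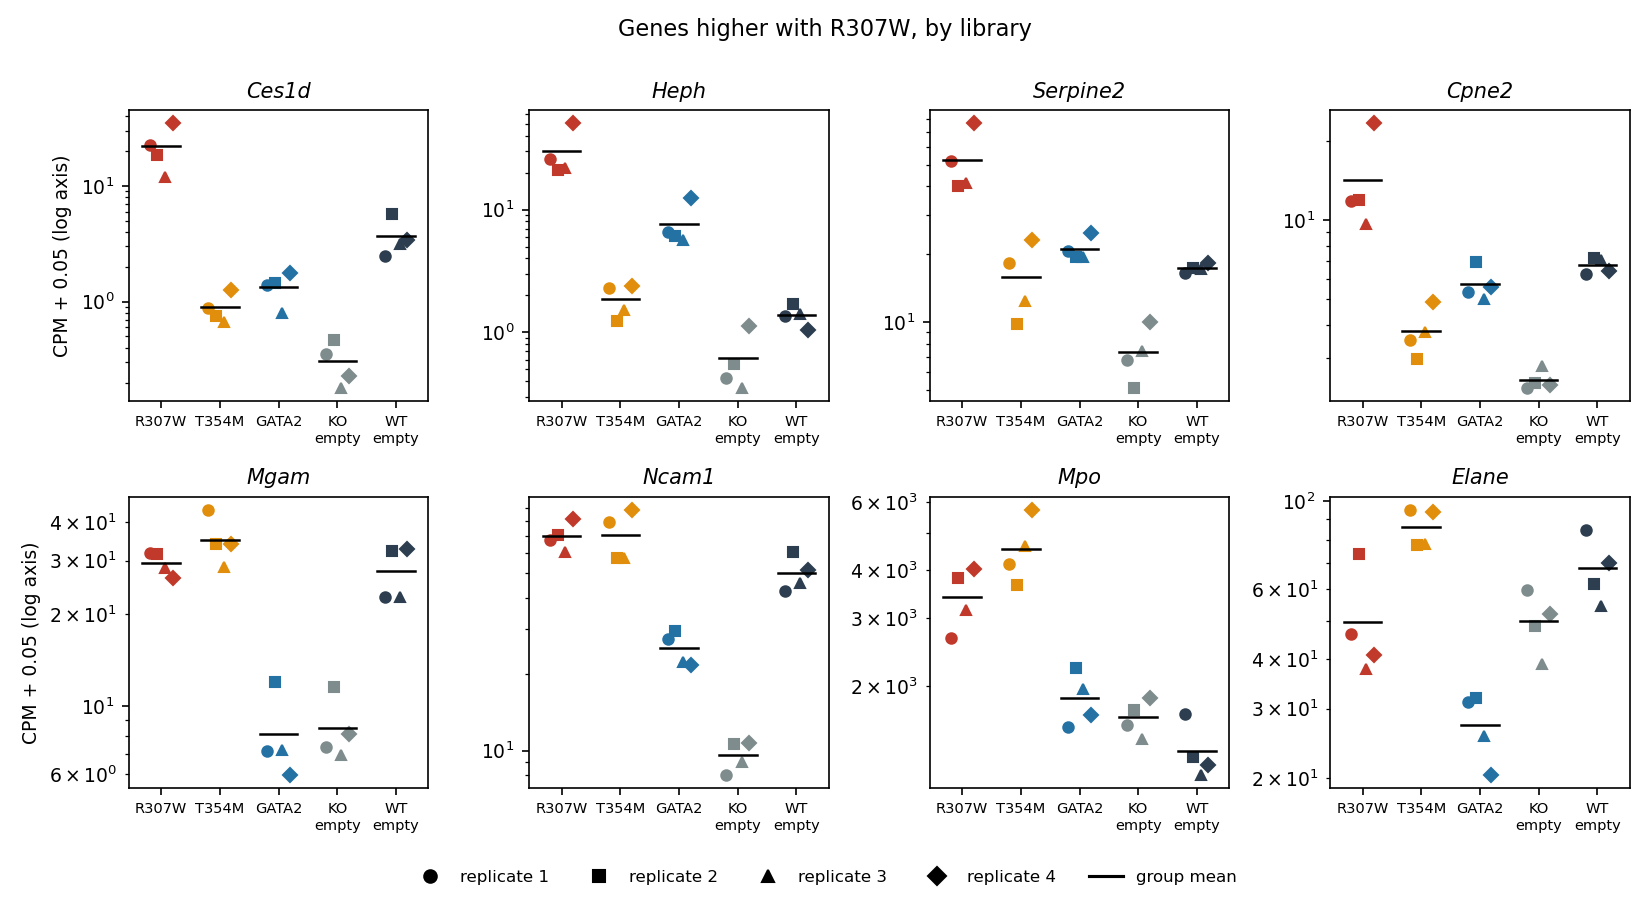
Level of 8 genes that were higher with R307W than with GATA2 in each library (CPM + 0.05, log axis), by group. Points are replicates 1 to 4 and bars are group means; Ces1d, Heph, Serpine2 and Cpne2 are lower with T354M than with R307W, whereas the R307W and T354M points of Mgam and Ncam1 overlap.

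The other lists held few or no calls. Of 32 cholesterol and fatty acid synthesis genes 31 had a log2 difference below 0, beside 46.3% of all genes tested, with a median of -0.21, and 2 fell, beside 1.14%. These were Cyp51, lanosterol demethylase (81.5 ± 6.2 CPM with R307W and 131 ± 10.5 CPM with GATA2; log2 difference -0.68 ± 0.15 SE, adjusted p = 0.0182, and 0.053 to 0.0723 without R307W replicate 2 or 3 or GATA2 replicate 1 or 2), and Fads1, a fatty acid desaturase (51.4 ± 5.26 CPM with R307W and 74.5 ± 9.4 CPM with GATA2; log2 difference -0.53 ± 0.10 SE, adjusted p = 0.00642). Glycolysis and hypoxia genes had 27 of 30 below 0, a median of -0.27 and no call. Interferon response genes had 54 of 59 above 0, a median of 0.18 and no call, and replication-dependent histones had 26 of 29 above 0, a median of 0.18 and no call. Nearest the threshold were Ldha, lactate dehydrogenase A (670 ± 86.4 CPM with R307W and 875 ± 136 CPM with GATA2; adjusted p = 0.21), and, in the interferon list, Ly6e, an interferon-induced membrane protein (598 ± 65.7 CPM with R307W and 530 ± 37 CPM with GATA2; adjusted p = 0.798). No test was made over a list.

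Late neutrophil (26 tested), monocyte and macrophage (35), dendritic cell and MHC class II (25), lymphoid (13) and stem and progenitor (27) genes had 0 or 1 call in each direction and medians between -0.08 and 0.09. Beside each count in this paragraph stands the share over all genes tested, 1.73% called, 0.587% higher and 1.14% lower. The calls were Gfi1 and Il1r2 among late neutrophil genes, Vcam1 among monocyte and macrophage genes and Il7r among lymphoid genes. The dendritic cell call was the factor Zbtb46 (2.13 ± 0.285 CPM with R307W and 4.89 ± 2.1 CPM with GATA2; log2 difference -1.20 ± 0.29 SE, adjusted p = 0.0402, and 0.0519 to 0.223 without any library but GATA2 replicate 3). In the stem and progenitor list the call was again Gfi1. Cdk6 was the 1 call among 44 cell cycle and DNA replication genes. Innate immune receptors had 1 call in 32, Nod1, a sensor of bacterial peptidoglycan (11.4 ± 0.711 CPM with R307W and 7.08 ± 1.37 CPM with GATA2; log2 difference 0.69 ± 0.15 SE, adjusted p = 0.0175, and 0.0599 or 0.0913 without R307W replicate 2 or GATA2 replicate 4). Unfolded protein and amino acid response genes had 1 in 29, the amino acid transporter Slc7a5 (89.9 ± 10 CPM with R307W and 134 ± 31.1 CPM with GATA2; log2 difference -0.57 ± 0.12 SE, adjusted p = 0.0173, and 0.0672 to 0.0825 without R307W replicate 1 or 3 or GATA2 replicate 4), and 3 with the block. No gene was called among hepatocyte (20 tested), lysosomal (34), mitochondrially encoded (13), heat shock (12) or stromal and endothelial (24) genes, or among chromosomal neighbours of Gata2 (18). In the heat shock, mitochondrially encoded, hepatocyte and stromal lists the members nearest the threshold were the chaperone Hspa1a (0.811 ± 0.338 CPM with R307W and 0.342 ± 0.249 CPM with GATA2; adjusted p = 0.534), mt-Nd4, a subunit of respiratory complex I (195 ± 24.9 CPM with R307W and 163 ± 14.9 CPM with GATA2; adjusted p = 0.712), Fgb, the fibrinogen beta chain (27.4 ± 21.2 CPM with R307W and 41.6 ± 27.6 CPM with GATA2; adjusted p = 0.999), and Pecam1, an adhesion molecule of endothelium and leukocytes (90.4 ± 13 CPM with R307W and 124 ± 17.1 CPM with GATA2; adjusted p = 0.27). The hepatocyte markers were all below 0, with a median of -0.38.

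**Figure D4:**
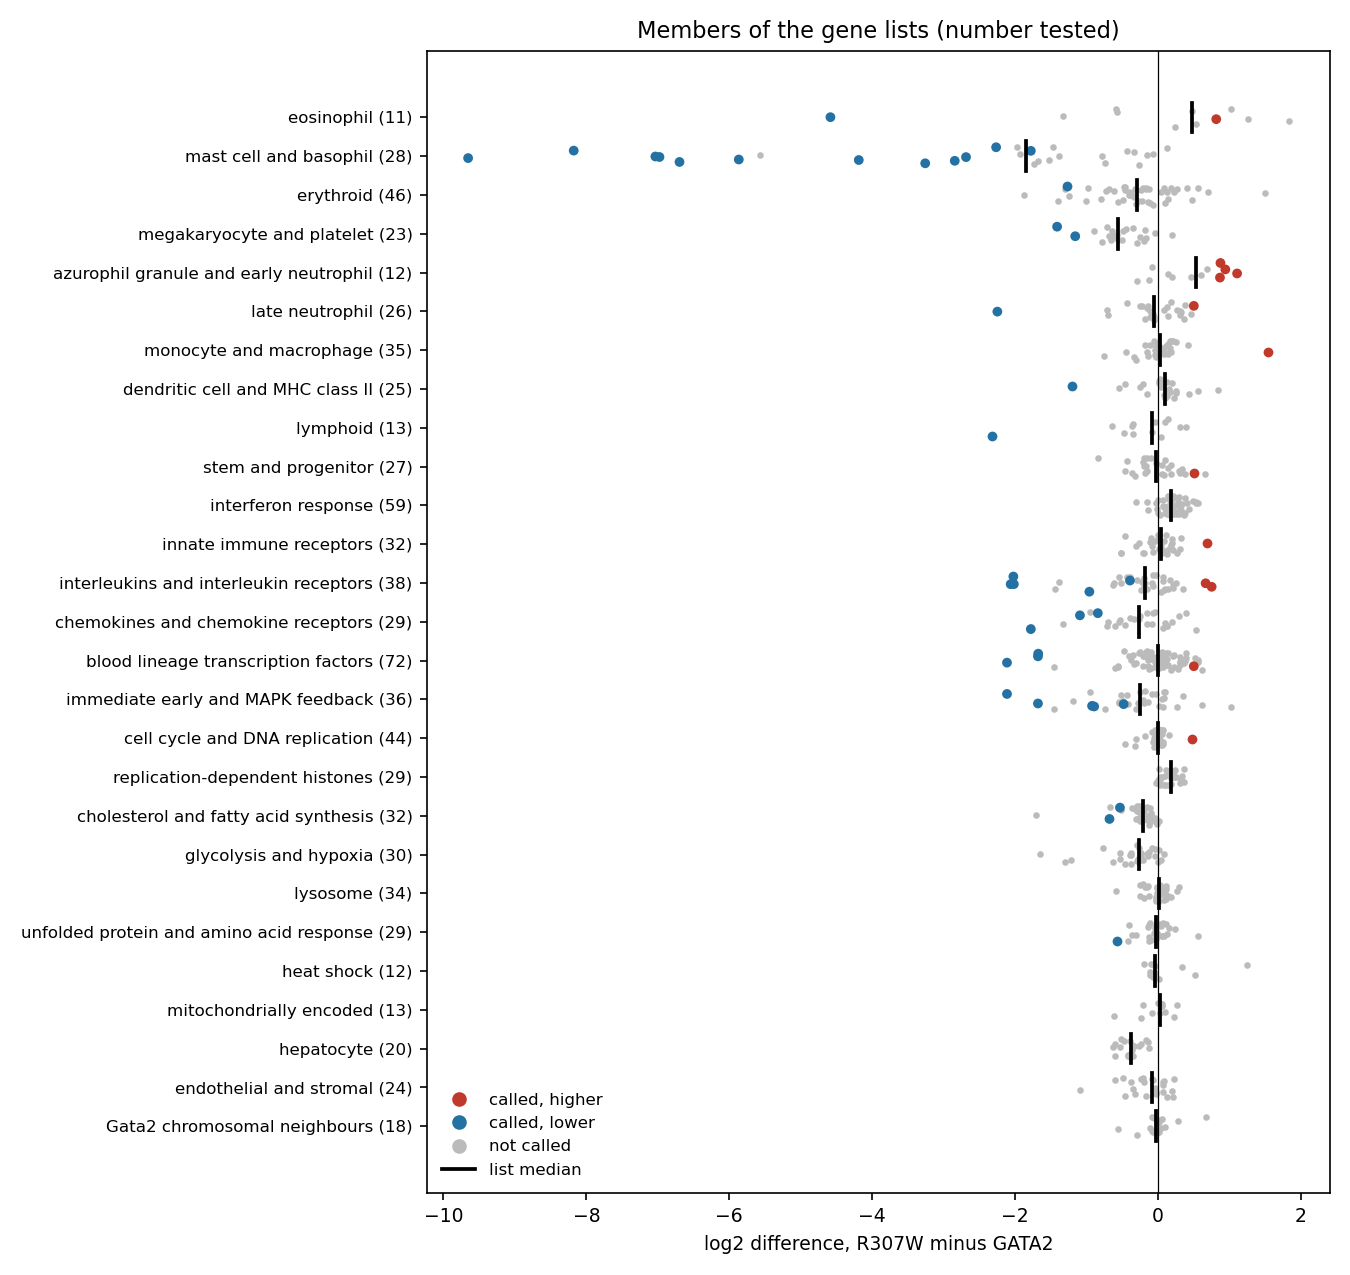
Log2 difference R307W minus GATA2 (horizontal axis) of every tested member of 27 gene lists, 1 row per list. Coloured points are members called at an adjusted p under 0.05 and vertical marks are list medians; the mast cell and basophil list has the median farthest from 0, at -1.85, and 12 called members.

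Because same-numbered R307W and GATA2 libraries deviated together from their group means, the ratio within each pair was also read for the genes above. Mcpt8, Cpa3, Epx, Osm, Ets1 and Il7r were lower with R307W in 4 of 4 pairs, and Ces1d, Heph, Mgam, Ncam1 and Mpo were higher in 4 of 4. The groups did not overlap in any of these genes, so any pairing of the libraries gives the same count. Of the genes that missed the threshold but passed with the block, Slc18a2, Il1rl1, Cd200r3 and Egr1 were each lower with R307W in 4 of 4 pairs, and Hbb-bt was higher in 4 of 4. They were chosen because they passed with the block, which uses the same pairs, so these counts are a description and no separate support.

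**Figure D5:**
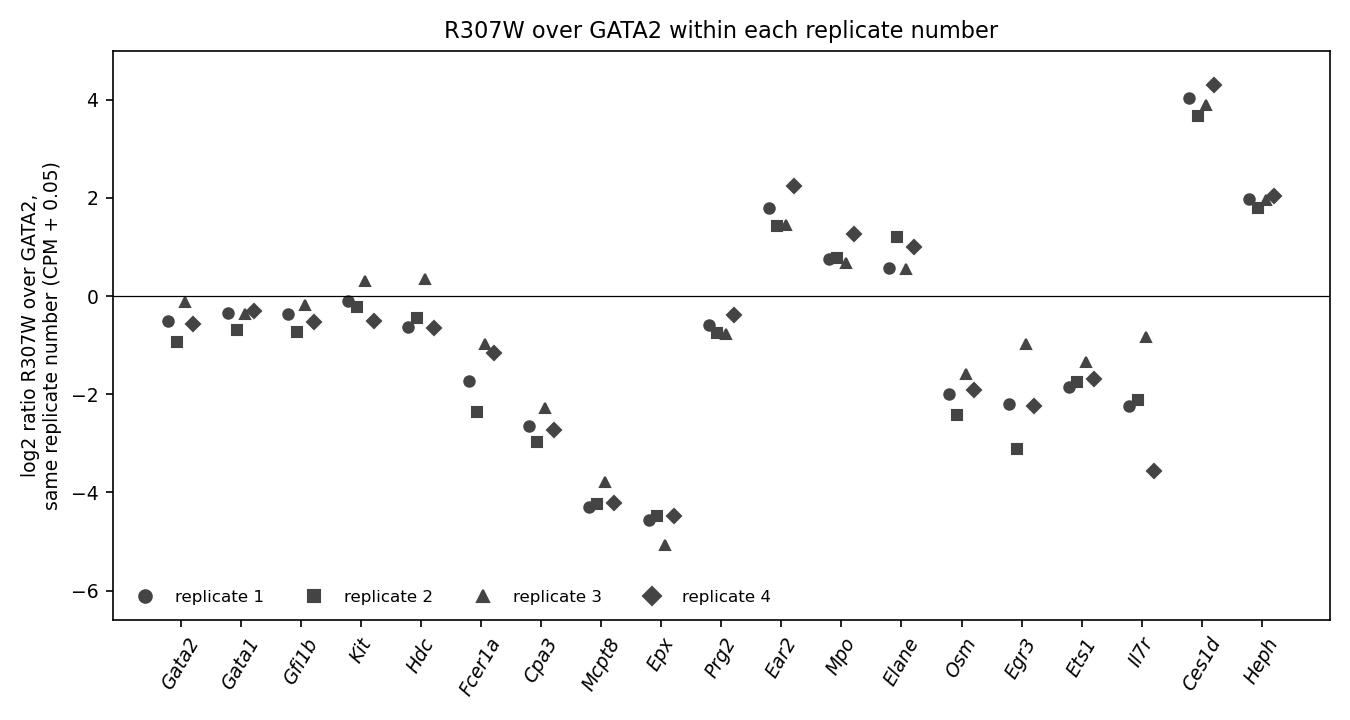
Log2 ratio of R307W over GATA2 within each replicate number (vertical axis, CPM + 0.05) for named genes along the horizontal axis, with 1 point per pair. All 4 points lie below 0 for Cpa3, Mcpt8, Epx, Osm, Egr3, Ets1 and Il7r and above 0 for Mpo, Elane, Ces1d and Heph, while the points of Kit and Hdc lie on both sides of 0. Among genes that were not called, all 4 points also lie below 0 for Gata2, Gata1, Gfi1b, Fcer1a and Prg2 and above 0 for Ear2.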

How the data were processed

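Total RNA of 20 libraries was made into cDNA with the NuGEN Ovation system, per the labels' protocols. The submitters' processing notes name STAR 2.5.2b, RSEM 1.3.0 and the genome build mm10, and the annotation and the use of strand are not given in the sources used here, so overlapping genes cannot be told apart. The authors deposited 1 RSEM table per library with expected counts and TPM per gene, per the file headers. Symbols were taken from GENCODE M21 (53274 of 53379 gene IDs matched; the rest held at most 0.015% of a library), and promoters from RefSeq (GRCm38.p6).

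Expected counts were rounded to whole numbers. Genes that passed edgeR's filterByExpr were fitted over all 20 libraries with 5 group means (15 residual degrees of freedom, common dispersion 0.0468) and tested with edgeR's quasi-likelihood test (edgeR 4.0.16, R 4.3.3) after TMM scaling. Adjusted p is by Benjamini-Hochberg over all 15835 genes, with a call at an adjusted p under 0.05. SE is the log2 difference divided by the root of F. Libraries of 22330475 to 33245876 counts limit what can be seen of genes under about 1 CPM. Counting intervals and floors cover counting error only, at 95%. The fits were tested on simulated data.

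Named genes are Gata2, the 12 highest and 12 lowest log2 differences among called genes with at least 5 CPM in a group and no overlap between groups, up to 5 genes called with under 0.2 CPM in one group and at least 1 CPM in the other, the 4 called members of each list with the lowest p (the nearest 1 where none was called), and other list members. The members and the 28 lists were chosen with earlier results of these data known. A list of 5 sex-linked genes tested had no call and a median of 0.10.

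Same-numbered R307W and GATA2 libraries deviated together from their group means (correlations across genes of 0.22 to 0.62, against -0.44 to 0.22 for other pairs). The Y-linked gene Ddx3y stood at 7.19 and 7.63 CPM in replicate 1 of R307W and GATA2, at 53.0 and 46.0 CPM in replicate 2, at 53.0 and 52.5 CPM in replicate 3 and at 0 in replicate 4, so the replicate number was taken to pair the libraries. Wild-type cells with the empty vector had another pattern, with 45.1, 141, 0 and 45.8 CPM of Ddx3y in replicates 1 to 4. The block over 20 libraries still gave them the same replicate numbers, and the effect on its p-values was not tested. No 2 libraries agreed within sampling noise (chi-square per degree of freedom 16.7 to 108). Alternatives were a replicate block, only 8 libraries, DESeq2 size factors, no filter, nuclear protein-coding genes, the DESeq2 Wald test (DESeq2 1.42.0), limma 3.58.1 on log2(TPM + 1) and log2(TPM + 0.1) of genes with a mean TPM of at least 1 in a group, other thresholds and leaving out libraries. Figures were drawn with matplotlib 3.10.9.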

Additional observations from a re-analysis of the deposited data

Results flagged for a closer look

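In 17 of 256 sets of 4 libraries looked at for the named genes, 1 library stood apart from the other 3 of its group by more than Dixon's 95% critical value, where chance gives about 1 in 20. Replicate 4 of R307W was the library that stood apart in 9 of them, always as the highest. Cebpa stood at 109 CPM there against 81.4 to 84.9 CPM in the others, Cpne2 at 23.4 against 9.66 to 11.9 CPM, Ets1 at 27.8 against 17.3 to 18.5 CPM, and Gfi1b at 42.2 against 17.3 to 21.4 CPM. Hbb-bt stood at 177 against 45.8 to 61.6 CPM, Hdc at 580 against 357 to 373 CPM, Heph at 50.4 against 20.9 to 25.6 CPM, Prss34 at 166 against 36.6 to 57.9 CPM, and Siglecf at 122 against 71.9 to 79.7 CPM. In the other R307W libraries, Alas2 was high in replicate 2 (2.12 CPM against 0.914 to 0.991), Gnai1 was low in replicate 1 (0.0416 CPM against 0.206 to 0.231), and Nrg4 was low in replicate 3 (7.72 CPM against 8.82 to 8.94). In the GATA2 libraries, Heph (12.3 CPM against 5.58 to 6.48) and Mcpt2 (4.18 CPM against 0.112 to 0.788) were high in replicate 4, Prss57 was high in replicate 2 (38.5 CPM against 26.6 to 27.3), Ear1 was low in replicate 3 (47.3 CPM against 110 to 116), and Vit was low in replicate 1 (0.215 CPM against 0.3 to 0.308).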

How the results depend on the processing

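The count of 274 called genes (93 rose, 181 fell) was 269 (82 and 187) with DESeq2 size factors and 266 (82 and 184) over nuclear protein-coding genes, and with no filter on low counts 108 rose and 246 fell. It was 441 (157 and 284) with the replicate block, 927 (312 and 615) with the block in the 8 libraries alone and 105 (42 and 63) in those 8 with no block. The DESeq2 Wald test gave 430 (137 and 293), limma on log2(TPM + 1) gave 162 (56 and 106) and on log2(TPM + 0.1) gave 145 (51 and 94), an adjusted p under 0.01 left 119 (42 and 77), and a 2-fold minimum left 185 (44 and 141). Leaving out libraries gave 36 to 368 called genes, 10 to 80 that rose and 26 to 290 that fell, with the lowest of each without replicate 1 of every group, and the highest count of called genes and of falls without GATA2 replicate 3. Without replicate 4 of every group the count was 162, or 210 with the replicate block. Gata2 kept its direction under every alternative, from -0.90 to -0.21 on the log2 scale, and passed the test only with the block in the 8 libraries alone (-0.55, adjusted p = 0.0345). Of 128 named genes 84 were called, none of these changed sign, and 18 were called under every alternative of design, scaling, test and left-out library. The replicate block ended the call of none of the 84 and added 12 named above, and it changed no other call among the named genes in that comparison. The fit of the 8 libraries without the block ended 44 of the calls. Without replicate 1, 2, 3 or 4 of every group, 63, 35, 26 or 26 of the 84 calls ended. The 1 change of sign was that of the uncalled histone gene Hist1h3d, whose differences without 1 library ran from -0.0157 (without R307W replicate 4) to 0.3617 (without GATA2 replicate 4), and the cause was not tested. Genes at a few counts in all R307W libraries have fitted differences that depend on the prior count.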

Other observations

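Genes of receptor signalling that belong to no list were also lower with R307W, and they were picked after their values were seen. The adaptor Lat2 had 39.7 ± 4.14 CPM with R307W and 76.2 ± 15.5 CPM with GATA2 (log2 difference -0.94 ± 0.13 SE, adjusted p = 0.000413). Sla2, an adaptor that dampens receptor signals, had 1.86 ± 0.301 CPM with R307W and 4.2 ± 1.01 CPM with GATA2 (log2 difference -1.18 ± 0.23 SE, adjusted p = 0.00862). The adaptor Lat had 7.88 ± 1.73 CPM with R307W and 18.1 ± 6.84 CPM with GATA2 (log2 difference -1.20 ± 0.28 SE, adjusted p = 0.0293), and the phospholipase Plcg1 had 28.5 ± 2.29 CPM with R307W and 42.3 ± 8.08 CPM with GATA2 (log2 difference -0.57 ± 0.12 SE, adjusted p = 0.017). The call of Lat was lost at an adjusted p of 0.0562 to 0.169 without R307W replicate 1, 2 or 3 or GATA2 replicate 1 or 4, and that of Plcg1 at 0.0575 to 0.096 without R307W replicate 2 or 3 or GATA2 replicate 1 or 4. Receptors for small mediators were among the genes that fell: Hrh4, a histamine receptor (0.43 ± 0.246 CPM with R307W and 3.93 ± 1.61 CPM with GATA2; log2 difference -3.14 ± 0.50 SE, adjusted p = 0.0018), Ptger3, a prostaglandin E receptor (13.3 ± 1.67 CPM with R307W and 27.6 ± 5.23 CPM with GATA2; log2 difference -1.05 ± 0.14 SE, adjusted p = 0.000413), Ptgir, the prostacyclin receptor (4.59 ± 0.687 CPM with R307W and 11 ± 3.42 CPM with GATA2; log2 difference -1.26 ± 0.21 SE, adjusted p = 0.00249), and Adora2b, an adenosine receptor (9.33 ± 4.04 CPM with R307W and 25.3 ± 10.6 CPM with GATA2; log2 difference -1.44 ± 0.32 SE, adjusted p = 0.0245, and 0.0556 to 0.137 without R307W replicate 1, 2 or 3 or GATA2 replicate 1 or 4). The leukocyte immunoglobulin-like receptors Lilr4b (128 ± 37 CPM with R307W and 528 ± 157 CPM with GATA2; log2 difference -2.05 ± 0.27 SE, adjusted p = 0.000413) and Lilrb4a (196 ± 88.8 CPM with R307W and 491 ± 56.8 CPM with GATA2; log2 difference -1.32 ± 0.31 SE, adjusted p = 0.0345, and 0.051 to 0.113 without R307W replicate 1, 3 or 4 or GATA2 replicate 1, 2 or 4) are similar copies, so reads could be split between them.

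Auts2, a regulator of transcription best known in neurons (GRCm38 chr5:131437333-132543344, - strand), was higher with R307W (8.3 ± 2.03 CPM with R307W and 3.49 ± 0.204 CPM with GATA2; log2 difference 1.25 ± 0.21 SE, adjusted p = 0.00322). Predicted genes within its span were higher too: Gm42992 (5.04 ± 1.51 CPM with R307W and 1.82 ± 0.284 CPM with GATA2; adjusted p = 0.0064), Gm42995 (1.45 ± 0.394 CPM with R307W and 0.354 ± 0.0264 CPM with GATA2; adjusted p = 0.0102), Gm42993 (6.48 ± 2.32 CPM with R307W and 2.27 ± 0.452 CPM with GATA2; adjusted p = 0.0495) and Gm43018 (0.783 ± 0.17 CPM with R307W and 0.224 ± 0.107 CPM with GATA2; adjusted p = 0.0268). Reads of these genes and of Auts2 cannot be told apart, and the calls of Gm42993 (0.0704 to 0.165) and Gm43018 (0.0549 to 0.0938) were lost without any one of several libraries: R307W replicate 1, 3 or 4 or GATA2 replicate 2, 3 or 4 for both, and GATA2 replicate 1 also for Gm42993. Itga4, the integrin chain that binds the Vcam1 protein, rose (708 ± 89.6 CPM with R307W and 481 ± 25.8 CPM with GATA2; log2 difference 0.56 ± 0.13 SE, adjusted p = 0.037), and the adjusted p was 0.0675 to 0.149 without R307W replicate 1, 3 or 4 or GATA2 replicate 1, 2 or 4.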
